A study of Mus musculus with 7 samples.

Results

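The IL-12 family was described in splenic Tregs as 9 genes, chosen by symbol in the deposited gene table from a list of subunits and receptors of the family. They are the subunit genes Il12a, Il12b, Ebi3, Il27 and Il23a and the receptor genes Il12rb1, Il12rb2, Il27ra and Il23r, and all 9 were found among the 25469 genes with a count in at least 1 library. The cells were CD4+CD25+ splenocytes isolated with a magnetic regulatory T cell kit from wild-type (WT) C57BL/6 male mice, in 3 biological replicates from aged mice (18 months) and 4 from young mice (8 weeks by the sample labels, while the study's methods give a slightly older age). The labels name no treatment in either group. The labels do not say whether a replicate was a single animal or a pool. The comparison asks how the transcripts of Tregs differ with age.

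Cytokines of the IL-12 family are pairs of a helical subunit and a receptor-like subunit, and the subunits are shared. IL-12 joins p35 (Il12a) to p40 (Il12b), IL-23 joins p19 (Il23a) to p40, IL-27 joins p28 (Il27) to Ebi3, and IL-35 joins p35 to Ebi3. Dendritic cells and macrophages are the known main source of IL-12, IL-23 and IL-27, and Tregs have been described as a source of IL-35. The receptors are shared as well, since Il12rb1 pairs with Il12rb2 for IL-12 and with Il23r for IL-23, and Il27ra pairs with gp130 (Il6st) for IL-27. Signals pass through the kinases Jak1, Jak2 and Tyk2 to Stat factors, with Stat4 typical of IL-12 and Stat3 used by IL-27 and IL-23.

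Reads counted on genes numbered 10734234 to 11244060 in the aged and 12039894 to 13649310 in the young libraries, so every young library was deeper. A level of 3 counts, taken as the limit of detection, was 0.21 to 0.302 CPM (counts scaled to the library size, on the TMM scale of edgeR), and this limit covers counting error only. Markers of T cells were read in all libraries, with a sum over 5 genes of 1737 to 2215 CPM, and so were 8 Treg markers, with a sum of 2121 to 3476 CPM. Foxp3, the defining factor of Tregs, had a log2 fold change of 0.21 (adjusted p = 0.409), and Il2ra, which encodes CD25, one of -0.61 (adjusted p = 0.0588). Of the 8 Treg markers 1 was called, Gpr83, a receptor gene typical of Tregs, which fell from 189 ± 29.1 CPM (SD, n = 4) in the young to 57.9 ± 19.6 CPM (SD, n = 3) in the aged (log2 fold change -1.71, adjusted p = 0.00274 in edgeR). Beside the counts of markers called here and below, 16.7% of all genes tested were called (9.8% rose and 6.94% fell). Markers of other cells were also read. Of 6 neutrophil markers 5 rose, a count that fell to 3 without aged replicate 1 and to 2 without young replicate 1 or 4, and they summed to 566 to 3169 CPM in the aged and 164 to 593 CPM in the young libraries, B cell markers to 706 to 1418 and 1158 to 1753 CPM, and plasma cell markers to 691 to 1250 and 305 to 1966 CPM. In a bulk sample, fewer cells of a type and less RNA per cell cannot be told apart. Below, Tregs names the whole isolate, other cells included.

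Of the 9 members, 7 passed the filter on low counts and 2, Il27 and Il23a, did not. In the fit over all 13904 genes tested (edgeR's quasi-likelihood test with Benjamini-Hochberg adjustment), 2 of the 7 were called with an adjusted p under 0.05, against 16.7% of all genes tested. Il12rb1 rose (9.8% of all genes tested rose) and Il12a fell (6.94% fell). In these 2 members the aged and young values did not overlap, which held for 29.9% of all genes tested. The median log2 fold change over the 7 tested members was 0.12, and over all genes tested 0.02.

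**Figure D1:**
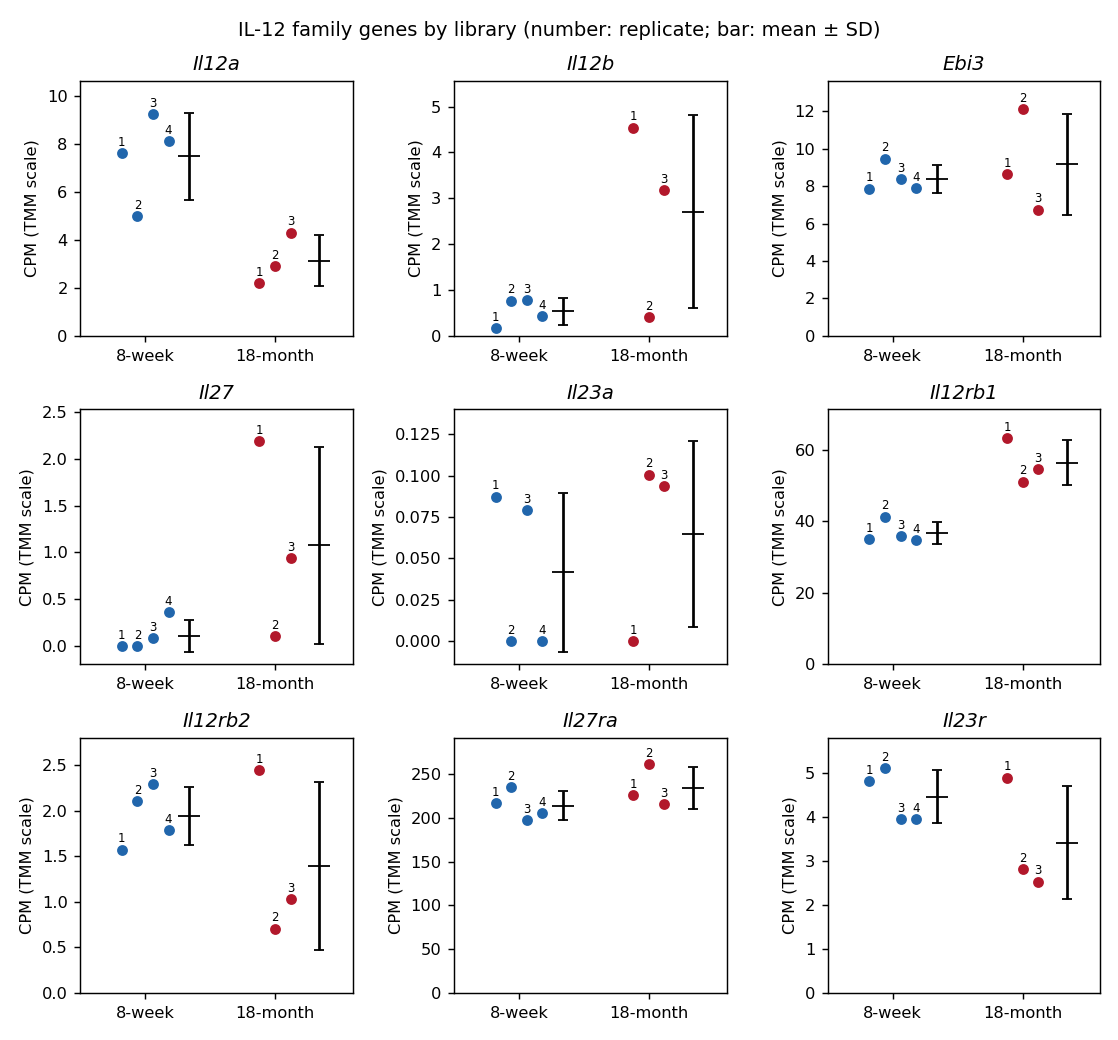
CPM on the TMM scale (y axis) of each member in the young (8-week, blue) and aged (18-month, red) libraries, 1 point per library with its replicate number, and mean ± SD as a black bar. Il12a and Il12rb1 are the members whose ages do not overlap, and Il12b and Il27 are high in aged replicates 1 and 3 but not in aged replicate 2.

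The sequences just upstream of the start sites are shown for 4 subunit and receptor genes. These are Il12a, its partners Il12b and Ebi3, and the receptor gene Il12rb2, and only Il12a of them was called. Il12a fell and has a pair of annotated starts 780 bases apart. The sequences are the 250 bases before each RefSeq start on GRCm38.p6, 5′ to 3′ on the strand of the gene. Capitals mark matches to 6 motifs of factors known in T cells or in cytokine genes. On either strand, the motifs were the STAT element TTCNNNGAA (in 7.02% of 32851 promoter windows of this length), the interferon response element ISRE (2.98%), the AP-1 element TGANTCA (6.75%), the NFAT core GGAAAA (20.4%), the T-box element TCACACC (3.33%) and the NF-kB element (7.25%). RefSeq windows were matched for 5 of the 9 members. Il12rb1, the receptor gene that was called, had none, and the window of Il23r, which held 2 NFAT cores, is not printed.
Il12a start 1, chr3:68690394-68690643, plus strand: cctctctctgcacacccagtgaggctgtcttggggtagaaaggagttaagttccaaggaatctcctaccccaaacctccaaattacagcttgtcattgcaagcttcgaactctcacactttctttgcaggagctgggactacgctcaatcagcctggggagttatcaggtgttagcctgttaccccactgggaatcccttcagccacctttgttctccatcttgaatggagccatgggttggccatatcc
Il12a start 2, chr3:68691174-68691423, plus strand: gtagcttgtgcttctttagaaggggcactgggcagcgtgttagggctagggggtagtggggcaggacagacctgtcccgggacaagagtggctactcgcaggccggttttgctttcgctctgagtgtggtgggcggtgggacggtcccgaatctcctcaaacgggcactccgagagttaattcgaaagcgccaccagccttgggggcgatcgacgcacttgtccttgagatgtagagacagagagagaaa
Il12b, chr11:44399813-44400062, plus strand: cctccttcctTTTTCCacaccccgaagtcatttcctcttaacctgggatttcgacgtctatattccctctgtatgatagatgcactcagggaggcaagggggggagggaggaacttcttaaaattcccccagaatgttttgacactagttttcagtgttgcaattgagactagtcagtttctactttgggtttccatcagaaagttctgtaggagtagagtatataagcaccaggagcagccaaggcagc
Ebi3, chr17:55952373-55952622, plus strand: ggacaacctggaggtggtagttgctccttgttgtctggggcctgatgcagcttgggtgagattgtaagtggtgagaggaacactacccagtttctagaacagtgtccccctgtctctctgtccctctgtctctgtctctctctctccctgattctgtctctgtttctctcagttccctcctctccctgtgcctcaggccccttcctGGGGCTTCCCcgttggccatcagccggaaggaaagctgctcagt
Il12rb2, chr6:67376189-67376438, minus strand: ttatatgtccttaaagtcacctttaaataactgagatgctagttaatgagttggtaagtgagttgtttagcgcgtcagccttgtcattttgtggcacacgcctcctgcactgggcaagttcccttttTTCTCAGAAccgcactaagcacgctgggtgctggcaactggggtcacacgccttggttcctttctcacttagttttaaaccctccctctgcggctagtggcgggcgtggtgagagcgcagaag
Neither Il12a window held any of the 6 letter patterns. The Il12b window held an NFAT core, the Ebi3 window an NF-kB match and the Il12rb2 window a STAT element. A match describes letters in a window and does not show that a factor binds there.

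Il12a (ENSMUSG00000027776), which encodes p35, the subunit shared by IL-12 and IL-35, lies at chr3:68690644-68698547 on the plus strand of GRCm38. It was at 2.18, 2.92 and 4.30 CPM in the aged (replicates 1 to 3) and at 7.6, 4.98, 9.24 and 8.10 CPM in the young libraries (replicates 1 to 4). Every aged library was below every young library, with young replicate 2 the lowest of the young. Aged Tregs averaged 3.14 ± 1.08 CPM (SD, n = 3), and young Tregs 7.48 ± 1.80 CPM (SD, n = 4), a level 2.38-fold higher in young Tregs, and the log2 fold change of -1.25 had a standard error of 0.30 (adjusted p = 0.0259 in edgeR). The reads behind it were few, 25 to 46 in the aged and 71 to 117 in the young libraries. Without aged replicate 2, or without young replicate 1, 3 or 4, the fall was no longer called (adjusted p = 0.0708, 0.0648, 0.069 and 0.0685 in edgeR), with log2 fold changes of -1.21, -1.24, -1.13 and -1.21. Markers of dendritic cells and macrophages, which are known to make p35 as well, went in both directions. Of 8 dendritic cell markers 3 fell, Cd209a (0, 1.01 and 0.561 CPM in aged replicates 1 to 3, against 4.19 to 8.85 CPM in the young), Siglech (1.22 to 2.43 against 3.58 to 6.63 CPM) and Clec9a (0.961 to 4.02 against 5.16 to 8.96 CPM, called in 1 of 7 leave-one-out fits), and 2 rose, Fscn1 and Zbtb46. Of 8 monocyte and macrophage markers 3 fell, Csf1r (33.1 to 54.4 against 88 to 95 CPM), Adgre1 and Vcam1, and none rose. The part of these cells in the Il12a values was not tested.

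Ebi3 (ENSMUSG00000003206, chr17:55952640-55957022, plus strand), which joins p35 in IL-35 and p28 in IL-27, showed no such difference. It was at 8.65, 12.1 and 6.74 CPM in the aged (replicates 1 to 3) and at 7.87, 9.46, 8.37 and 7.88 CPM in the young libraries (replicates 1 to 4). The aged libraries held both the highest and the lowest value, and the young values lay between them. The log2 fold change was 0.12 with a 95% interval from -0.36 to 0.60 (adjusted p = 0.733 in edgeR), so changes between 0.779-fold and 1.52-fold lay within the interval. Per kb of exon, the ratio of Ebi3 to Il12a was 2.31 to 6.10 in the aged and 1.34 to 2.80 in the young libraries, and the ages overlapped through aged replicate 3 and young replicate 2. Exons of a gene on the opposite strand, Gm16712, cover 23.4% of the Ebi3 exon length, and without strand the reads there could not be assigned.

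Il12b (ENSMUSG00000004296, chr11:44400063-44414033, plus strand) encodes p40, the subunit common to IL-12 and IL-23. It was at 4.54, 0.403 and 3.18 CPM in the aged (replicates 1 to 3) and at 0.175, 0.771, 0.79 and 0.43 CPM in the young libraries (replicates 1 to 4). Aged replicates 1 and 3 were above every young library, while aged replicate 2, with 4 counts, lay within the young range. The log2 fold change of 2.29 (standard error 0.71) was not called (adjusted p = 0.0599 in edgeR), although its unadjusted 95% interval ran from 0.67 to 3.92. With all libraries kept, Il12b was called by DESeq2 (adjusted p = 0.0153) and by edgeR with no filter on low counts (adjusted p = 0.0379). It was not called by limma, the tool the study's methods name, with voom (log2 fold change 1.91, adjusted p = 0.189) or trend (1.67, adjusted p = 0.152), nor by edgeR with RLE factors (adjusted p = 0.0605) or library size scaling (adjusted p = 0.0739). In edgeR the log2 fold change was 2.79 without aged replicate 2 (adjusted p = 0.0116), 1.70 without aged replicate 1 (adjusted p = 0.16) and 2.18 without aged replicate 3 (adjusted p = 0.155). The fit without aged replicate 2 leaves out the lowest aged library, so it is conditioned on the levels and is no support for a difference. With any young library left out, Il12b did not pass the filter on low counts.

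Il27 (ENSMUSG00000044701, chr7:126589010-126594941, minus strand), the p28 subunit gene of IL-27, was read 25, 1 and 10 times in aged replicates 1 to 3 and 0, 0, 1 and 5 times in young replicates 1 to 4. These counts correspond to 2.18, 0.101 and 0.936 CPM in the aged libraries and to at most 0.358 CPM in the young. As for Il12b, aged replicates 1 and 3 stood above every young library and aged replicate 2 did not. The gene was under the filter on low counts, and the exact two-sided permutation test of its log2 CPM (aged minus young 1.86) gave p = 0.114, where 3 against 4 libraries allow no p under 0.0571. With no filter on low counts, edgeR gave a log2 fold change of 3.13 (adjusted p = 0.0653), and DESeq2 gave 3.25 (adjusted p = 0.0509). Il27 passed the filter only when its lowest aged library, replicate 2, was left out, and the value of that fit (3.67, adjusted p = 0.0397) is therefore conditioned on the levels and is no support for a difference. Il23a (ENSMUSG00000025383, chr10:128296139-128298752, minus strand), which encodes the p19 subunit of IL-23, had 0 or 1 count in each library and could not be told from 0 at this depth.

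Markers of the cells known to make the cytokines of Il12b and Il27 were summed in the same libraries. The 8 monocyte and macrophage markers summed to 553, 396 and 541 CPM in aged replicates 1 to 3 and to 517 to 605 CPM in the young libraries. The order within the aged libraries was that of Lyz2 alone, at 369, 162 and 265 CPM. The other 7 markers, summed after the values were seen, gave 184, 234 and 275 CPM in aged replicates 1 to 3 and 308 to 368 CPM in the young libraries. This sum was lowest in aged replicate 1, where Il12b and Il27 were highest. None of the 8 was at 0 in a library. The 8 dendritic cell markers summed to 118, 105 and 132 CPM in aged replicates 1 to 3 and to 76.6 to 101 CPM in the young libraries. Fscn1, a gene of mature dendritic cells, alone was at 63.0 to 76.0 CPM in aged and 14 to 21.6 CPM in young libraries (named after its values were seen). Without Fscn1 the other 7 markers summed to 41.9, 42.1 and 63.4 CPM in aged replicates 1 to 3 against 60.1 to 79.4 CPM in the young, so the higher aged sum was that of Fscn1 alone. Aged replicate 1 also had the highest sum of neutrophil markers, 3169 CPM. The part of these cells in the Il12b and Il27 values was not tested.

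**Figure D2:**
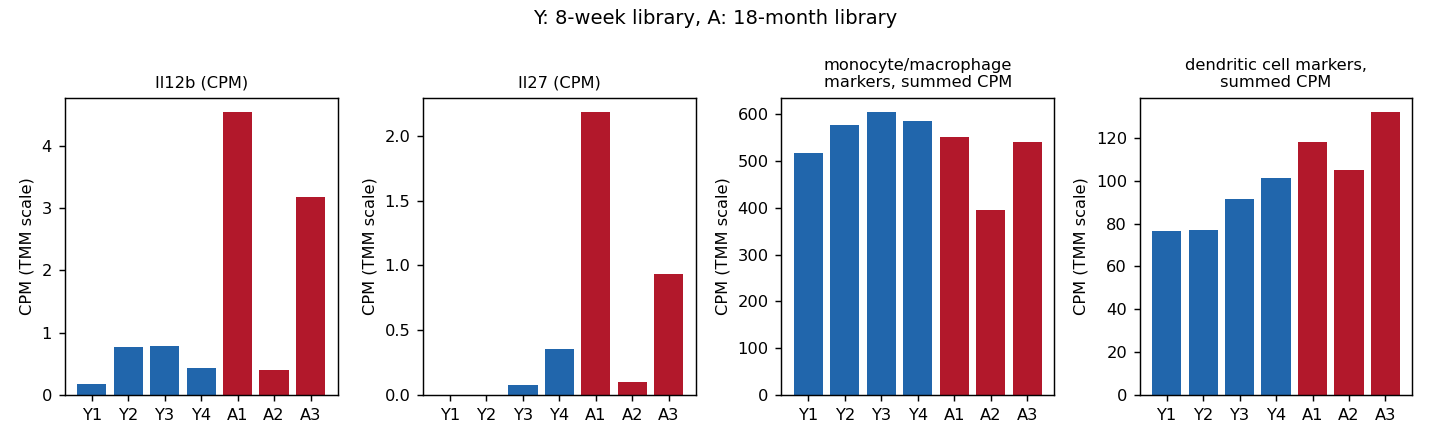
CPM on the TMM scale (y axes, from 0) of Il12b, Il27 and the summed markers of monocytes or macrophages and of dendritic cells, 1 bar per library (Y1 to Y4 young, A1 to A3 aged). Il12b and Il27 are highest in A1 and A3, while the summed monocyte and macrophage markers, of which Lyz2 makes up 369 of 553 CPM in A1, span 517 to 605 CPM in the young libraries; without Lyz2 every aged sum (184 to 275 CPM) lies below every young sum (308 to 368 CPM). The dendritic cell sum is higher in every aged library only with Fscn1, without which it is 41.9 to 63.4 CPM in the aged and 60.1 to 79.4 CPM in the young libraries.

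Among the receptors, Il12rb1 (ENSMUSG00000000791, chr8:70808449-70821424, plus strand), the chain common to the IL-12 and IL-23 receptors, rose in the aged libraries. It was at 63.3, 51.1 and 54.6 CPM in the aged (replicates 1 to 3) and at 35, 41.3, 35.9 and 34.7 CPM in the young libraries (replicates 1 to 4). The lowest aged library was above the highest young library, which was young replicate 2. Means were 56.3 ± 6.28 CPM (SD, n = 3) and 36.7 ± 3.07 CPM (SD, n = 4), and the fold was 1.53 (95% interval 1.29 to 1.82, adjusted p = 0.0083 in edgeR). Each of the 7 leave-one-out fits called the rise, with log2 fold changes from 0.52 to 0.68. The part of cells other than Tregs in the Il12rb1 values was not tested.

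Il12rb2 (ENSMUSG00000018341, chr6:67291318-67376188, minus strand), the second chain of the IL-12 receptor and a known mark of cells that can answer IL-12, was at 2.45, 0.705 and 1.03 CPM in the aged (replicates 1 to 3) and at 1.57, 2.10, 2.29 and 1.79 CPM in the young libraries (replicates 1 to 4). Aged replicate 1 was the highest of all libraries, and the other two aged libraries were below every young one. The log2 fold change of -0.46 (95% interval -1.41 to 0.49, adjusted p = 0.486 in edgeR) was not called. With aged replicate 1 left out it was -1.15 (adjusted p = 0.0542). Of its exon length, 40% is shared with exons of Serbp1 on the opposite strand, so its counts rest on the remaining exons. Per kb of exon, Il12rb1 was 23.9 to 66.9 times the level of Il12rb2 in the aged and 14.5 to 20.6 times in the young libraries, without a test. Over the exon length that no other gene shares, these ratios were 14.3 to 40.1 in the aged and 8.7 to 12.3 in the young libraries, which also did not overlap.

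Il23r (ENSMUSG00000049093, chr6:67422932-67491855, minus strand), the IL-23-specific chain, is the neighbour of Il12rb2 on chromosome 6, 46743 bases away. It was at 4.89, 2.82 and 2.53 CPM in the aged (replicates 1 to 3) and at 4.81, 5.12, 3.95 and 3.94 CPM in the young libraries (replicates 1 to 4). As for Il12rb2, aged replicates 2 and 3 were below every young library, and aged replicate 1 was not. The log2 fold change was -0.38 (95% interval -1.0 to 0.25, adjusted p = 0.379 in edgeR), and -0.74 without aged replicate 1 (adjusted p = 0.0646).

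Beside these receptors, neither of which was called, stand markers of other lymphocytes known to carry Il12rb2 or Il23r. The 5 NK cell markers summed to 26.0 to 29.9 CPM in the aged and 38.7 to 55.0 CPM in the young libraries, and 2 of them, Klrb1c and Klrd1, fell (1 without aged replicate 3 or without young replicate 3 or 4). Of 5 gamma-delta T cell markers, 1 fell, Tcrg-C1 (log2 fold change -1.01, adjusted p = 0.0207 in edgeR), which 3 of the 7 leave-one-out fits called. Sox13 of the same list was higher in every aged than in every young library but not called (log2 fold change 0.76, adjusted p = 0.0931), and Tcrg-C2 was lower in every aged library and not called (-0.99, adjusted p = 0.0502, called under 6 of 16 alternatives). The other two, Trdc and Blk, overlapped between the ages (-0.69 and -0.14). No marker of either list was at 0 in a library. The gamma-delta list, most of whose level is Blk, summed to 83.3 to 144 CPM in the aged and 127 to 164 CPM in the young libraries. The part of these cells in the Il12rb2 and Il23r values was not tested.

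Il27ra (ENSMUSG00000005465, chr8:84030294-84042589, minus strand), the IL-27-specific chain, had the most reads of the family, 2305 to 3358 in a library. It was at 226, 261 and 216 CPM in the aged (replicates 1 to 3) and at 217, 235, 197 and 206 CPM in the young libraries (replicates 1 to 4). The ages overlapped, with aged replicate 3 below 2 of the young libraries. Its fold was 1.1 with a 95% interval from 0.921 to 1.31 (adjusted p = 0.445 in edgeR), the narrowest interval of the members that were not called.

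The levels of the members were also compared per length, as CPM per kb of exon. In young Tregs the order was Il27ra (61.2 ± 4.72 CPM per kb, SD, n = 4), Il12rb1 (8.95 ± 0.748), Ebi3 (7.27 ± 0.648), Il12a (4.4 ± 1.06), Il23r (1.79 ± 0.241), Il12rb2 (0.511 ± 0.0841), Il12b (0.275 ± 0.150), Il27 (0.107 ± 0.167) and Il23a (0.0185 ± 0.0214). Neighbours in this order did not overlap between libraries down to Il12b, while Il12b overlapped Il27, and Il27 overlapped Il23a. In aged Tregs the first 3 were again Il27ra (67.1 ± 6.86 CPM per kb, SD, n = 3), Il12rb1 (13.7 ± 1.53) and Ebi3 (7.94 ± 2.35), with no overlap between neighbours. They were followed by Il12a (1.84 ± 0.633), Il12b (1.38 ± 1.07), Il23r (1.37 ± 0.518), Il27 (1.05 ± 1.03) and Il12rb2 (0.367 ± 0.244), in which each neighbour overlapped the next, and by Il23a at 0.0288 ± 0.025. Counted over the exon length that no other gene shares, a scale chosen after the data were seen, Ebi3 (9.50 CPM per kb) stood above Il12rb1 (8.95) in young Tregs, and Il12rb2 was at 0.852 CPM per kb.

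**Figure D3:**
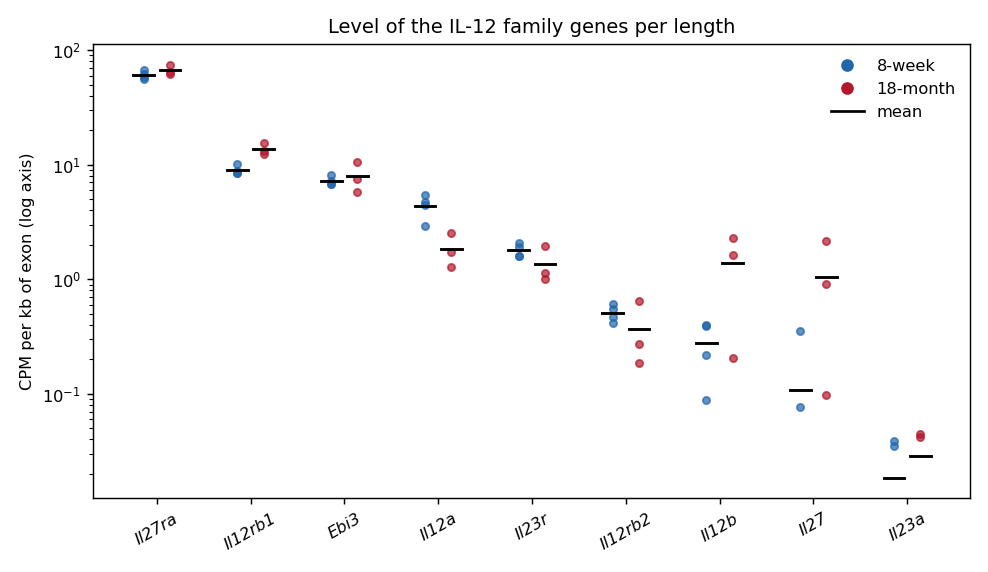
Level of each member in CPM per kb of exon (y axis, log scale) in the young (blue) and aged (red) libraries, 1 point per library, with the mean as a black line; libraries at 0 (Il27 and Il23a) have no point on the log axis but count in the mean. Il27ra lies far above the rest, at 61.2 in young and 67.1 in aged Tregs, and Il12a is the member of the upper 4 whose aged points all lie below the young.

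The genes that join or follow these receptors were taken from fixed lists. The lists were chosen with earlier results of these data known, so their counts are no test of a pathway. Of 9 receptor partner and signalling genes, 3 rose, none fell and 6 did not pass the test, while 9.8% of all genes tested rose. The median log2 fold change of this list was 0.26. Stat3 rose from 220 ± 15.1 CPM in the young (SD, n = 4) to 309 ± 26.0 CPM in the aged (SD, n = 3), with a log2 fold change of 0.49 (adjusted p = 0.0169 in edgeR), and 4 of the 7 leave-one-out fits called it. Socs3, an inhibitor of cytokine signals through gp130, rose from 73.9 ± 10.8 to 170 ± 43.4 CPM (log2 fold change 1.2, adjusted p = 0.00427). Exons of an overlapping gene model, Gm28177, cover 26.7% of the Stat4 exon length, and reads there were left unassigned.

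Stat4, the main factor of IL-12 signals, had a log2 fold change of 0.42 (adjusted p = 0.0836 in edgeR) and was not called. The kinases Jak1 and Jak2, at -0.37 (adjusted p = 0.0517) and -0.28 (adjusted p = 0.18), were lower in each aged than in each young library but not called, although Jak1 was called under 6 of 16 alternatives. Tyk2, with 0.11 (adjusted p = 0.386), Socs1, with 0.25 (adjusted p = 0.221), and the gp130 gene Il6st, with 0.26 (adjusted p = 0.345), overlapped between the ages. Aged replicate 1 had the highest Il6st level, 318 CPM, beside 191 and 236 CPM in aged replicates 2 and 3, against 181 to 233 CPM in the young libraries.

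Of 10 genes of the IL-12 and Th1 response, 5 rose, none fell and 5 did not pass the test. Of all genes tested, 9.8% rose. The median log2 fold change of the list was 0.78. Tbx21, which encodes T-bet, stood at 8.18 ± 1.79 CPM (SD, n = 4) in the young and rose to 16.9 ± 2.16 CPM (SD, n = 3), for a log2 fold change of 1.04 (adjusted p = 0.0105 in edgeR). The chemokine receptor gene Cxcr3, a known T-bet target, rose from 34.6 ± 8.84 to 108 ± 5.77 CPM (log2 fold change 1.64, adjusted p = 0.00125). Both chains of the IL-18 receptor rose, Il18r1 with a log2 fold change of 0.66 and Il18rap with one of 1.05 (adjusted p = 0.0169 and 0.00513). Ifng, the cytokine gene most closely tied to IL-12 and named for that role, had a log2 fold change of 0.69 and was not called (adjusted p = 0.179).

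Of 9 genes of the IL-27 response, 6 rose, none fell and 3 did not pass the test, while 9.8% of all genes tested rose. The median log2 fold change of the list was 1.2. Il21, a cytokine gene that IL-27 can induce, averaged 0.545 ± 0.136 CPM (SD, n = 4) in young Tregs and reached 9.54 ± 3.70 CPM (SD, n = 3) in the aged (adjusted p = 0.000529 in edgeR). The genes of the inhibitory receptors Lag3 and Tigit rose, with log2 fold changes of 2.56 and 1.58 (adjusted p = 0.00125 and 0.00162). Maf and Prdm1, factors that act on Il10, rose by 1.12 and 1.2 (adjusted p = 0.00131 and 0.0326), and Cd274, which encodes PD-L1, by 0.68 (adjusted p = 0.0135). Only 2 of the 7 leave-one-out fits called Prdm1. Il10 itself, named for its role, measured 23.5, 10.3 and 45.7 CPM in aged replicates 1 to 3, against a young range of 4.74 to 14.8 CPM, and was not called (log2 fold change 1.61, adjusted p = 0.0718). These genes also answer other signals, so the counts describe the list and not the cytokine.

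Of 8 genes of the IL-23 and Th17 response, 5 passed the filter on low counts. Of these 1 rose and none fell, so 20% were called, near the 16.7% of all genes tested. The median log2 fold change of the list was -0.07. The gene that rose was Il21r, the receptor of IL-21 (log2 fold change 0.48, adjusted p = 0.0185 in edgeR), and it was called under 10 of 16 alternatives. Il17a, Il17f and Il22 were under the filter, with at most 0.874, 0.655 and 0.395 CPM in a library. Il17a was at 0.468 to 0.874 CPM in aged and at most 0.079 CPM in young libraries, and the 2 alternatives that kept it called it higher (adjusted p = 0.0129 and 0.0161).

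**Figure D4:**
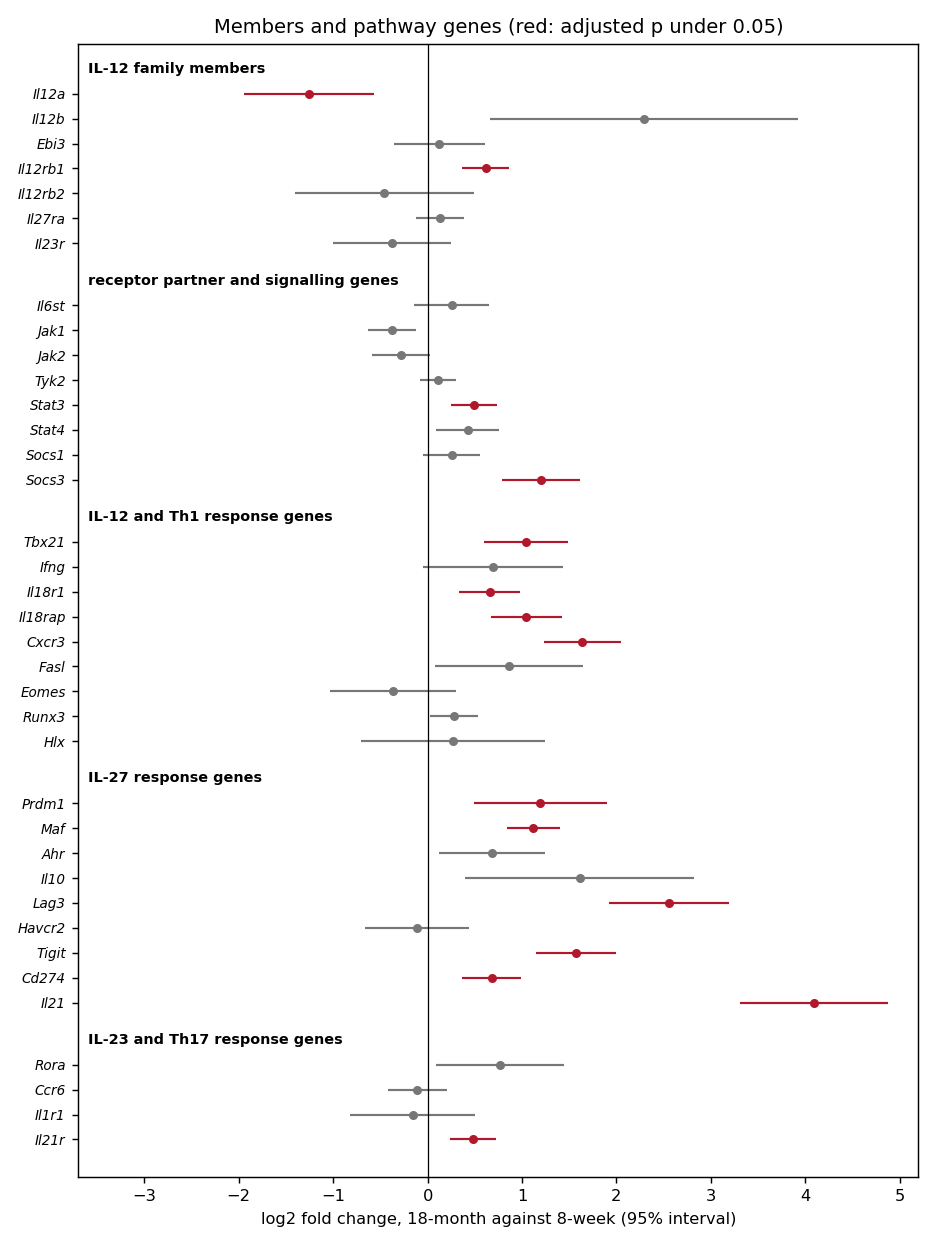
Log2 fold change, 18-month against 8-week (x axis), with its 95% interval, of the tested members and of the tested genes of the 4 fixed lists that are reported here, with genes of an adjusted p under 0.05 in red. Among the members Il12a lies left of 0 and Il12rb1 right of 0 with intervals clear of it, and every red gene drawn from the 4 lists lies to the right of 0.

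For the 5 members with at least 10 counts in every library, the genes with the most similar pattern of log2 CPM over the 7 libraries were ranked by Pearson's r among tested genes whose mean log2 CPM was at least 3. Il12rb1 was most like Plscr1 (r = 0.993), H2-T22 (0.9905) and Ly6a (0.9897), and 340 of 9548 genes had an r of at least 0.9. For Il12a the first genes were Edaradd (0.989), Zbtb34 (0.9883) and Tmem57 (0.9834), with 97 of 9549 at or above 0.9. For Ebi3 they were Prmt2 (0.995), Cnnm3 (0.9897) and Fbxo28 (0.9542), for Il27ra Hs1bp3 (0.989), Gpx3 (0.9694) and Dpagt1 (0.9674), and for Il23r Whsc1l1 (0.9936), Abtb2 (0.986) and Adcy3 (0.981). These r describe 7 libraries that share 2 ages and the same normalization, and they carry no test.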

How the data were processed

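Splenic CD4+CD25+ cells, in 3 libraries from aged and 4 from young mice, were profiled with SMART-Seq v4 cDNA, which carries no molecular identifiers. The authors deposited raw read counts per Ensembl gene for each library, aligned to mm10 by the labels, in the layout of HTSeq-count (union mode, without strand, by the naming). The aligner is not given in the sources used here. Reads assigned to no gene, or to more than one (13.1% to 20.9%) were left out. The authors also deposited a table of signal values, which equal the counts scaled by a size factor of each library (checked), with gene symbols and their own fold changes and p-values, which were not used.

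For the comparison of ages, edgeR 4.0.16 was run under R 4.3.3 (TMM, filterByExpr, quasi-likelihood test, Benjamini-Hochberg over 13904 genes, threshold 0.05), tested on simulated data. Standard errors were derived from the fold change and the F statistic. The study's methods name limma, which was an alternative (limma 3.58.1, voom and trend), beside DESeq2 1.42.0, RLE or library size scaling, other filters, haemoglobin, immunoglobulin and mitochondrial genes left out, a replicate block and each library left out. Coordinates and exon lengths are those of GENCODE M21 on GRCm38, and promoters those of RefSeq. The members and lists were chosen with earlier results of these data known. Named were all members, all receptor partner and signalling genes, and from the other lists genes with an adjusted p under 0.05, up to 6 of a list; Ifng, Il10, Fscn1, Cd209a, Lyz2, Gpr83, Klrb1c, Klrd1, other marker genes and genes at low counts were added for their roles or after their values were seen. Some genes of the lists enter the counts and medians but are not reported here by name. P-values measure the spread between biological replicates as the labels name them.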

Additional observations from a re-analysis of the deposited data

Results flagged for a closer look

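Among the members and the genes of the 4 response and signalling lists, 45 genes were checked for a library far from the others of its age, which is possible only in the 4 young libraries. The check picked 2 genes, and chance alone picks about 1 in 20 groups. Havcr2, which encodes the inhibitory receptor TIM-3, was at 7.5 CPM in its lowest young library, replicate 3, and at 10.4 to 11 CPM in the others. Tigit was at 74.8 CPM in its highest young library, replicate 2, and at 44.8 to 49.5 CPM in the others, still below the lowest aged value of 140.4 CPM. None of the 9 members was picked.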

How the results depend on the processing

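The pairing of equal replicate numbers does not come from the design, and the same-numbered libraries did not deviate together from their age means (correlations of -0.09, -0.29 and -0.14). With a replicate block, on 6 libraries, 279 genes were called in all, 0 of the members, 2 of the IL-12 and Th1 list, 2 of the IL-27 list and 0 of the IL-23 and Th17 list. Under this block Il12a had a log2 fold change of -1.22 (adjusted p = 0.0996) and Il12rb1 one of 0.59 (adjusted p = 0.0997) in edgeR's test. Leaving out one library at a time, the count of genes called ran from 1237 to 3058 and that of members from 1 to 3, that of the IL-12 and Th1 list from 3 to 5, that of the IL-27 list from 5 to 8 and that of the IL-23 and Th17 list from 0 to 1. The 3 members called without aged replicate 2 included Il12b and Il27, for which that fit is conditioned on the levels. Over the leave-one-out fits (3 of them for Il12b) the log2 fold change of Il12a ran from -1.55 to -1.05, that of Il12b from 1.70 to 2.79, and that of Ebi3 from -0.13 to 0.30, negative only without aged replicate 2. Il12b was called with DESeq2 (2.30, adjusted p = 0.0153) and with no filter on low counts (2.27, adjusted p = 0.0379) but not with limma voom (1.91, adjusted p = 0.189), limma-trend (1.67, adjusted p = 0.152), RLE factors or library size only, and it did not pass the filter in 7 of 16 alternatives. The count of the IL-23 and Th17 list was 3 with DESeq2, 2 with no filter and 0 with library size only. Among the reported genes of the lists that were not called, Havcr2 changed sign without aged replicate 2 (0.11) and Il1r1 with the replicate block (0.0502). The causes were not tested. A scale on coding length was not run. Few reads limit Il12b, Il27, Il23a and Il12rb2.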
